A study of Mus musculus with 24 samples.

Results

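The perineuronal net is a lattice of extracellular matrix around neurons. Its genes were followed here through 10 members, which were the rows of the deposited count table whose symbol was Acan, Bcan, Vcan, Ncan, Hapln1, Hapln4, Tnr, Tnc, Mmp9 or Mmp17. These are 10 of the 55414 genes in the table, and each had 1 row. All 10 were among the 14464 genes whose highest count in any library reached 30, which were the genes tested. Mmp9 passed this minimum through only 6 of the 24 libraries, from dark mice 1, 2, 4 and 6 and psilocybin-light mice 19 and 24, so its test rested on few reads. Tnc reached it in 23 libraries and the other 8 members in all 24.

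A net is built on hyaluronan, a long sugar chain held at the cell surface by the enzymes that make it. Chondroitin sulfate proteoglycans of the lectican family (aggrecan, brevican, versican and neurocan) bind hyaluronan at one end, link proteins of the Hapln family fasten that bond, and tenascins join lecticans at their other end. In the cortex the densest nets surround fast-spiking parvalbumin interneurons, and the closing of the period of high plasticity in the visual cortex goes along with their maturation. Metalloproteinases cut matrix proteins, and MMP9 is known for its part in experience-dependent plasticity of this area.

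RNA came from the visual cortex of male C57BL/6J mice aged 8 to 10 weeks, kept on a reversed light cycle, with 1 library per mouse and 6 mice per group. Mice of the dark group received PBS and stayed in the dark, mice of the light group received PBS and were put in the light, and mice of the psilocybin-dark and psilocybin-light groups received 5 mg/kg psilocybin, the compound of hallucinogenic mushrooms, before the same exposures. The cortex was taken 2.5 h later in all groups. The question was how these genes differed between the exposures and whether the combination differed from the sum of both.

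The sources disagree on light. The headings of the count table published with the study, followed here, put libraries 1 to 6 in the dark, 7 to 12 in the psilocybin-dark, 13 to 18 in the light and 19 to 24 in the psilocybin-light group, while GEO's sample labels give each library the other light exposure with the same drug. Under the labels no value below would change, but the words light and dark would be exchanged in every group name. The light against dark change would then turn its sign, the psilocybin-dark against dark and psilocybin-light against light comparisons would trade places, as would psilocybin-light against dark and psilocybin-dark against light, and psilocybin-light against psilocybin-dark and the interaction would turn their signs. Mice are therefore named by group and library number.

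Total counts per library ran from 13552516 to 17906994, and the biological coefficient of variation, the spread between mice of a group beyond counting error, was 18.2% over all genes tested. In 4 libraries the summed level of 6 cerebellum markers stood far above the others. It was 17186 normalized counts in dark mouse 1, 38022 in dark mouse 6, 17004 in psilocybin-dark mouse 12 and 10009 in light mouse 18, against 155 to 821 in the other 20. Among those 20 the dark mice were still higher, at 370 to 821 with a median of 562. Light mice were at 158 to 234 (median 196), psilocybin-dark at 155 to 694 (165) and psilocybin-light at 157 to 611 (194). Leaving out the 4 libraries therefore did not remove this difference of the dark group. With all mice, 6 of 6 cerebellum markers were called lower in psilocybin-light than in dark mice and 0 in the light and psilocybin-dark comparisons. No cerebellum marker was at 0 over a whole group. The dark group also differed in other markers. The hippocampus list summed to between 1672 and 6904 normalized counts in dark mice and to 1285 to 1737 in the other 18, and the hypothalamus and amygdala list to 425 to 4352 against 124 to 713. Markers of layer 4 of the visual cortex, which check the labelled tissue, were detected in every group but were lower in dark mice, at 887 to 1792 against 1888 to 2884, with 4 of 4 called in each comparison with the dark group. In whole tissue, fewer cells of a type and less RNA per cell cannot be told apart. The dark group differed from the others in these markers as well as in exposure. In comparisons with dark mice and in the interaction, exposure and the makeup of the tissue taken therefore cannot be told apart. Words such as rose, fell and change below mean a difference between groups. Results below are from all 24 mice unless said otherwise, and calls and counts that changed when the 4 libraries were left out are also given without them, a step chosen after their values were seen.

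Levels were compared between members after counts were divided by the length of all exons of the gene. Per kilobase, the medians over 24 mice were 642 normalized counts for Mmp17, 477 for Hapln4, 448 for Bcan, 404 for Ncan and 216 for Tnr. Hapln1 followed at 66.8, then Vcan at 14.7, Tnc at 11.2, Acan at 9.58 and Mmp9 at 6.72. Neighbours among the 5 highest overlapped in their ranges over mice, from 220 to 746 for Mmp17, 237 to 659 for Hapln4, 378 to 510 for Bcan, 196 to 533 for Ncan and 181 to 292 for Tnr. Hapln1, at 34.9 to 78.3, overlapped neither the genes above it nor the range of 13.1 to 20.8 for Vcan. Tnc spread most, from 3.64 to 50.1, across the ranges of Vcan, Acan (7.50 to 19.1) and part of those of Hapln1 and Mmp9 (3.55 to 11.6). Bcan and Ncan, the lecticans secreted widely by glia and neurons of the adult brain, were thus at higher levels per length than Acan, the lectican that marks nets themselves.

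**Figure D1:**
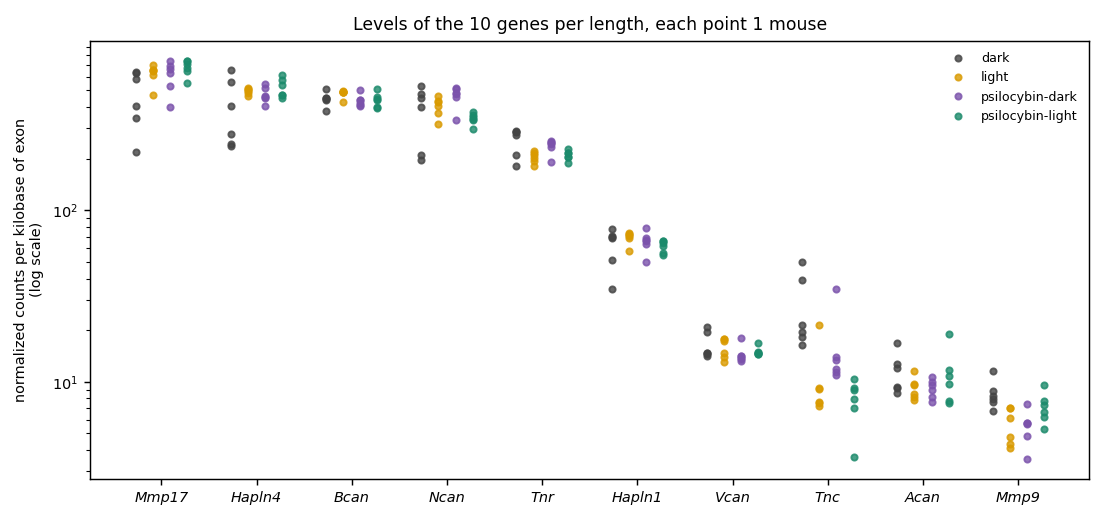
Normalized counts per kilobase of exon (log axis) of the 10 genes, ordered by their median, with 1 point per mouse and 1 colour per group. Mmp17, Hapln4, Bcan, Ncan and Tnr have medians between 216 and 642, and Vcan, Tnc, Acan and Mmp9 medians between 6.72 and 14.7.

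Lecticans and link proteins were neighbours in the genome. On GRCm39, with GENCODE vM39 annotation, Ncan lies at chr8:70538926-70573523 on the minus strand and Hapln4 at chr8:70536106-70543533 on the plus strand, and the genes overlap by 4608 bases. They share 1255 exon bases, which are 12.6% of those of Ncan and 31.3% of those of Hapln4. The strand setting of the counting is not given in the sources used here, so counts of both genes are uncertain to the extent that reads fell there. Vcan (chr13:89803431-89890814, minus) and Hapln1 (chr13:89686581-89759950, plus) lie 43480 bases apart with no coding gene between them. Bcan (chr3:87894835-87910177, minus) has the link protein gene Hapln2 at 16622 bases, and Acan (chr7:78702964-78764847, plus) has Hapln3 at 2 bases. The tenascins and metalloproteinases are on chromosomes of their own, with Tnr at chr1:159351339-159759299 (plus), Tnc at chr4:63878014-63965443 (minus), Mmp9 at chr2:164780439-164797771 (plus) and Mmp17 at chr5:129661084-129688163 (plus).

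The tenascins, both lower in light and in psilocybin-light than in dark mice, are shown by the 250 bases before their annotated starts, from RefSeq on GRCm38.p6. Tnc is at chr4:64046937-64047186 (minus strand) and Tnr at chr1:159523519-159523768 (plus strand), both written 5′ to 3′ in the direction of the gene. Capitals mark a TATAAA or a GGGCGG.
Tnc: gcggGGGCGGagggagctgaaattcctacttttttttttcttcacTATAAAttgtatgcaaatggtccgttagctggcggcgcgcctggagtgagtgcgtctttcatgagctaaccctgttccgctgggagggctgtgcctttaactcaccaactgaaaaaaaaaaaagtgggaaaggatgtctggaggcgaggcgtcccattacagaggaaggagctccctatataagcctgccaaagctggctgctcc
Tnr: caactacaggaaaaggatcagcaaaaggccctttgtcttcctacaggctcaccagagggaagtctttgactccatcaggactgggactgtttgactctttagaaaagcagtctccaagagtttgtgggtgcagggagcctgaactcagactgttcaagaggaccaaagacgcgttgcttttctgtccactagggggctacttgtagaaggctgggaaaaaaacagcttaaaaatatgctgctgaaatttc
The Tnc stretch holds 1 of each motif and the Tnr stretch neither. Of the members, 7 matched entries with 8 starts, Tnc having 2, and Hapln4, Mmp9 and Mmp17 had no entry. On either strand, TATAAA was found in 3 of the 8 stretches, of Ncan and both Tnc starts, and in 12.4% of all 32851 stretches of the same length. GGGCGG was found in 6 of 8, against 32.7%. The Tnc stretches overlap and hold the same TATAAA and GGGCGG, so that by gene the motifs were found in 2 of 7 and 5 of 7. None of the 8 held the AP-1 letters TGANTCA (6.75% of all), the cAMP response letters TGACGTCA (1.55%), the EGR letters GCGTGGGCG (0.536%) or the E-box CACGTG (6.02%). Some motifs overlap in letters, since the AP-1 and cAMP response motifs begin and end alike, the cAMP response motif and the E-box share ACGT, and the EGR motif and GGGCGG share GGGCG.

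Both tenascins and Mmp9 were lower in light than in dark mice. Of the 10 members, 3 were called lower and 0 higher by edgeR's quasi-likelihood test, where called means an adjusted p under 0.05. Of all genes tested 31.9% were called, 15.4% higher and 16.5% lower. The median log2 change was 0.02 over the members and -0.01 over all genes. Psilocybin-dark mice had 1 member lower than dark mice, Mmp9, with 24.7% of all genes called, 11.9% higher and 12.8% lower. Mmp9 reached the count minimum in dark but in no light or psilocybin-dark library, so both its calls are given as a description. In psilocybin-light against dark mice both tenascins fell and Mmp17 rose, 3 of 10 with 38.4% of all genes called, 17.4% higher and 21.0% lower. With only 10 members, their shares of 3, 1 and 3 in 10 cannot be set apart from these backgrounds. When the 4 libraries were left out, 3, 3 and 6 members were called in these comparisons, and 43.1%, 38.3% and 48.2% of all genes were. All 3 comparisons share the same dark mice, so they are not independent of each other.

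**Figure D2:**
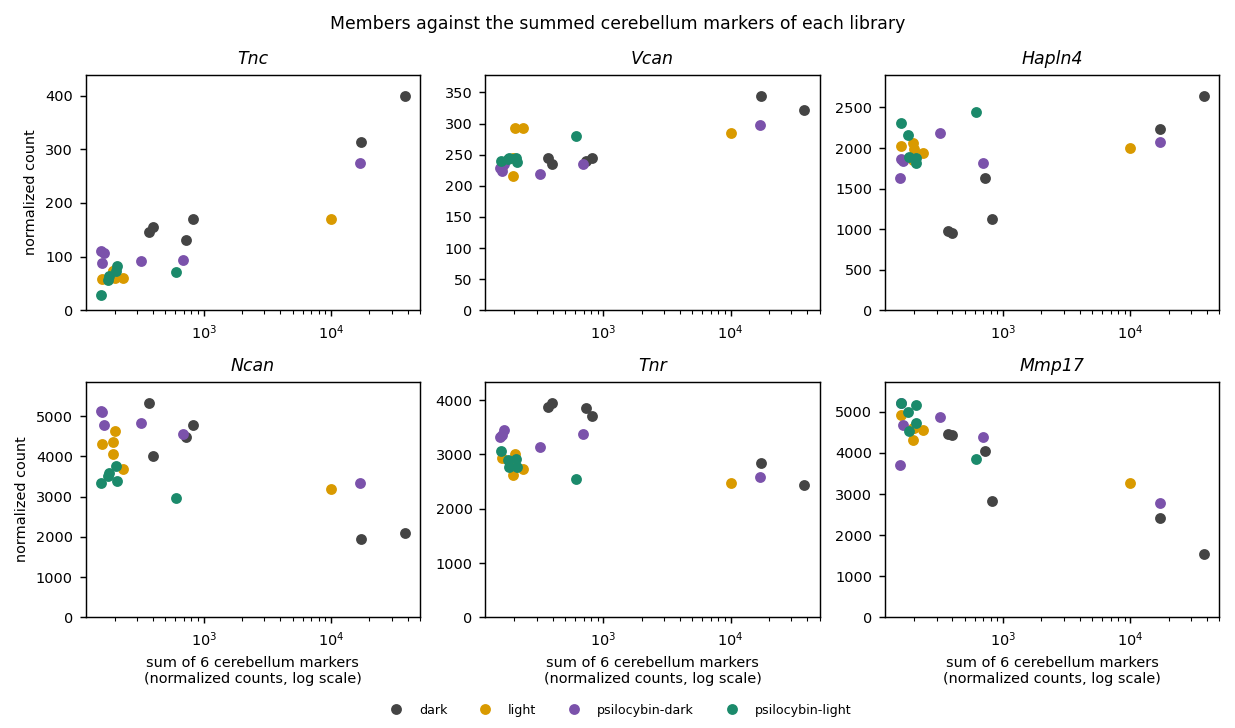
Normalized counts of 6 members against the sum of 6 cerebellum markers (log axis), with 1 point per mouse and colours for groups. The 4 libraries above 5000 on the horizontal axis include the highest Tnc value of the dark (399), light (171) and psilocybin-dark (275) groups and the lowest Ncan (1955) and Mmp17 (1539) values of all mice.

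Tnc, which encodes tenascin-C, a matrix glycoprotein made mainly by glia and raised in development and injury, changed most. Its normalized count was lowest 130, median 163 and highest 399 in dark mice, 57.5, 66.8 and 171 in light mice, 87.7, 100 and 275 in psilocybin-dark mice and 29.0, 67.7 and 82.5 in psilocybin-light mice. Every psilocybin-light mouse was below every dark mouse, and 15.8% of all genes had no overlap in that comparison, in either direction. Light and dark mice overlapped only through light mouse 18, and psilocybin-dark and dark mice only through psilocybin-dark mouse 12, both among the 4 libraries. The fitted log2 change against dark was -1.41 ± 0.35 (SE; adjusted p = 0.0036) in light, -0.78 ± 0.34 (adjusted p = 0.099, not called) in psilocybin-dark and -1.80 ± 0.36 (adjusted p = 0.00039) in psilocybin-light mice. With these libraries left out it was -1.20 ± 0.17 (adjusted p = 1.5e-05), -0.62 ± 0.17 (adjusted p = 0.0070) and -1.24 ± 0.17 (adjusted p = 4.7e-06), called in all 3. No mouse of these groups then overlapped a dark mouse, as for 31.3%, 26.2% and 31.1% of all genes, and leaving out psilocybin-dark mouse 12 alone made the psilocybin-dark change a call (adjusted p = 0.0090). With the mean of the hippocampus markers as a covariate, the light change was -0.78 and no longer called (adjusted p = 0.087). Markers of meningeal and perivascular fibroblasts, cells that can make tenascin-C, summed to 2151 to 5878 normalized counts in dark mice and 748 to 3661 in the others, with 1 of 6 called lower in each comparison and none at 0 over a group. Without the 4 libraries the dark sums were 2899 to 5878 and overlapped no other group. The others were then 1023 to 1429 in light, 862 to 2840 in psilocybin-dark and 748 to 2302 in psilocybin-light mice. The list includes Dcn, which was much higher in dark than in light and psilocybin-dark mice (means are given below), so the sums need not stand for all 6 markers. The part of the fibroblast markers in the Tnc change was not tested. Astrocyte markers summed to 20949 to 30767 in dark mice and 16590 to 25577 in the others, with 2, 2 and 3 of 6 called lower and 1 higher in light, psilocybin-dark and psilocybin-light mice and none at 0 over a group. Without the 4 libraries their sums were 20949 to 23227 in dark, 18177 to 21129 in light, 18348 to 23235 in psilocybin-dark and 16590 to 20178 in psilocybin-light mice. Their part was not tested either.

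Tnr encodes tenascin-R, which ties lecticans together in the net and is made mainly by oligodendrocytes and some neurons. It was lowest 2443, median 3777 and highest 3944 normalized counts in dark mice, 2464, 2782 and 3006 in light mice, 2587, 3336 and 3447 in psilocybin-dark mice and 2553, 2837 and 3062 in psilocybin-light mice. Dark mouse 1, at 2836, lay in the range of the light mice and dark mouse 6, at 2443, was the lowest of all 24, while dark mice 2 to 5 were between 3699 and 3944 and above every other mouse. Its log2 change was -0.32 ± 0.10 (adjusted p = 0.016) in light and -0.28 ± 0.10 (adjusted p = 0.024) in psilocybin-light mice, and -0.10 ± 0.10 (adjusted p = 0.48, not called) in psilocybin-dark mice. In the fit to the other 20 mice Tnr fell in all 3, by 0.44, 0.44 and 0.21 on the log2 scale (adjusted p = 5.8e-07, 2.8e-07 and 0.0016), and psilocybin-dark mice lay between the dark group and both light groups with no overlap on either side, as for 26.2% of all genes against dark, 7.36% against light and 10.8% against psilocybin-light mice. Psilocybin-dark exceeded light mice by 0.23 ± 0.05 in that fit (adjusted p = 0.012) and the change from psilocybin-dark to psilocybin-light mice was -0.22 ± 0.04 (adjusted p = 0.0017). With the oligodendrocyte, the hippocampus or the hypothalamus and amygdala markers as a covariate, or with only the compared groups fitted (adjusted p = 0.064 and 0.077), the light and psilocybin-light calls were lost. The psilocybin-light call was also lost without dark mouse 2, 4 or 5 or psilocybin-light mouse 23, with adjusted p up to 0.062. The oligodendrocyte list, in which no marker was at 0 over a group, summed to 18655 to 127156 normalized counts in dark mice and 39130 to 91283 in the others, with 0 of 6 markers called in any of the 3. Without the 4 libraries it summed to 18655 to 46203 in dark mice. It was then 47875 to 77736 in light, 39130 to 79301 in psilocybin-dark and 42282 to 91283 in psilocybin-light mice. Oligodendrocyte precursor markers summed to 2624 to 4414 in dark mice and 2449 to 3577 in the others, with 2, 4 and 5 of 6 called lower and none at 0 over a group. Without the 4 libraries the dark sums were 3780 to 4414 and overlapped no other group. The others were then 2805 to 3440 in light, 2837 to 3577 in psilocybin-dark and 2449 to 3090 in psilocybin-light mice. The part of both lists in the Tnr change was not tested.

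**Figure D3:**
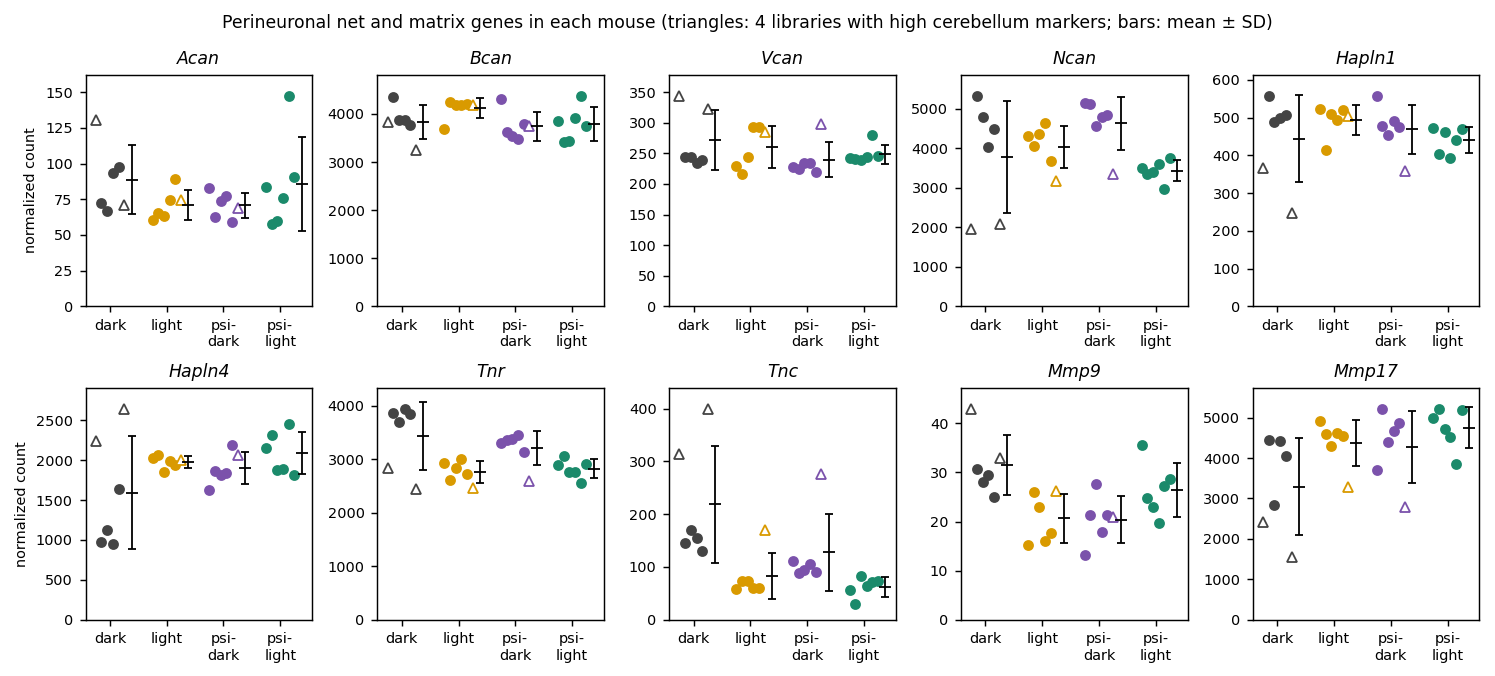
Normalized counts of the 10 genes in each mouse by group, with open triangles for the 4 libraries with high cerebellum markers and black bars for the mean ± SD of 6 mice. Tnc and Tnr are lower in the light groups, and dark mice 2 to 5 hold the lowest Hapln4 values, 949 to 1632, apart from an overlap with psilocybin-dark mouse 7 at 1626.

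Of the link proteins, which clamp lecticans to hyaluronan, Hapln4 turned on the 4 libraries. Hapln4 is the link protein of fast-spiking neurons' nets and of brainstem and cerebellar synapses. Its lowest, median and highest normalized counts were 949, 1377 and 2642 in dark, 1855, 1996 and 2058 in light, 1626, 1853 and 2189 in psilocybin-dark and 1816, 2025 and 2449 in psilocybin-light mice. Dark mice 1 and 6, at 2234 and 2642, were the highest of their group and dark mice 2 to 5 were between 949 and 1632. With all mice no comparison with dark was called, and the log2 changes were 0.31 ± 0.19, 0.25 ± 0.19 and 0.39 ± 0.19 in light, psilocybin-dark and psilocybin-light mice. In the other 20 mice Hapln4 rose in all 3, by 0.76 ± 0.13, 0.67 ± 0.13 and 0.84 ± 0.12 (adjusted p = 7.1e-05, 0.00030 and 1.1e-05), and without dark mouse 6 alone it was also called in each, with adjusted p of 0.015 in light, 0.035 in psilocybin-dark and 0.0050 in psilocybin-light mice. Pvalb, the calcium-binding protein that marks parvalbumin interneurons and is also abundant in the cerebellum, was at 205 to 591 normalized counts in dark mice 2 to 5 and 521 to 1399 in the other mice outside the 4 libraries. The whole parvalbumin list summed to 931 to 2076 in those dark mice and 1692 to 4247 in the others. Its markers did not move as one, and Tac1 was at 208 to 348 in those dark mice and 95.9 to 289 in the others. With all mice, 1 of 6 was called higher and 1 lower in light, 0 and 1 in psilocybin-dark, and 0 and 0 in psilocybin-light mice. The part of this list in the Hapln4 change was not tested.

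Hapln1, the link protein common to most nets, was at 249 to 558 normalized counts in dark mice, 415 to 523 in light, 358 to 558 in psilocybin-dark and 392 to 472 in psilocybin-light mice. The groups overlapped throughout and no comparison was called with all mice. In the other 20 mice the log2 change from dark to psilocybin-light mice was -0.21 ± 0.07 (adjusted p = 0.020).

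Among the lecticans, no comparison was called for any of the 4 genes in the main fit to all mice. Acan, which encodes aggrecan, the core proteoglycan of mature nets, was lowest 66.9, median 82.7 and highest 131 normalized counts in dark mice. It was 60.6, 70.0 and 88.8 in light mice, 58.9, 71.5 and 82.5 in psilocybin-dark mice and 58.0, 79.6 and 148 in psilocybin-light mice. The highest values were those of psilocybin-light mouse 23 and dark mouse 1, and the fitted log2 changes against dark were -0.32 ± 0.19, -0.33 ± 0.19 and -0.05 ± 0.19. Psilocybin-light mouse 23 also had a thalamus list sum of 1484, against 451 to 555 in the other mice of its group.

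Bcan, encoding brevican, a lectican of adult nets and synapses, had the narrowest range of the members relative to its level. It ran from 3243 to 4353 normalized counts in dark, 3691 to 4243 in light, 3472 to 4302 in psilocybin-dark and 3411 to 4381 in psilocybin-light mice, with changes against dark between -0.03 ± 0.07 and 0.10 ± 0.07 on the log2 scale. Its light change was called in 1 of 12 other settings, with the hypothalamus and amygdala markers as a covariate (adjusted p = 0.022). Vcan, encoding versican, which is made largely by oligodendrocyte precursors, was at 235 to 344 in dark mice, 217 to 293 in light, 219 to 298 in psilocybin-dark and 238 to 280 in psilocybin-light mice. Dark mice 1 and 6, at 344 and 323, were the highest of all mice for Vcan, and its changes against dark lay between -0.18 ± 0.10 and -0.06 ± 0.10. Fitted without the 4 libraries they were 0.08 in light, -0.08 in psilocybin-dark and 0.05 in psilocybin-light mice, none called, so their sign was not stable.

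Ncan encodes neurocan, a lectican of diffuse brain matrix and developing nets. Its lowest, median and highest normalized counts were 1955, 4256 and 5328 in dark, 3180, 4177 and 4630 in light, 3344, 4808 and 5136 in psilocybin-dark and 2967, 3449 and 3762 in psilocybin-light mice. The lowest mouse of the dark, light and psilocybin-dark groups was 1 of the 4 libraries each time, and dark mouse 6, at 2091, was the next lowest. Without them, every psilocybin-light mouse was below every dark and every psilocybin-dark mouse, as for 31.1% and 10.8% of all genes in either direction. The log2 change to psilocybin-light was then -0.43 ± 0.07 from dark (adjusted p = 5.7e-05), -0.50 ± 0.07 from psilocybin-dark (adjusted p = 0.00020) and -0.29 ± 0.07 from light mice (adjusted p = 0.028). In the main fit to all mice the same differences were -0.14 ± 0.19, -0.43 ± 0.19 and -0.24 ± 0.19, of which none was called. With a surrogate variable, each of them was called, as were psilocybin-dark against dark and the interaction for Ncan. The latter calls were also made with the oligodendrocyte markers as a covariate.

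**Figure D4:**
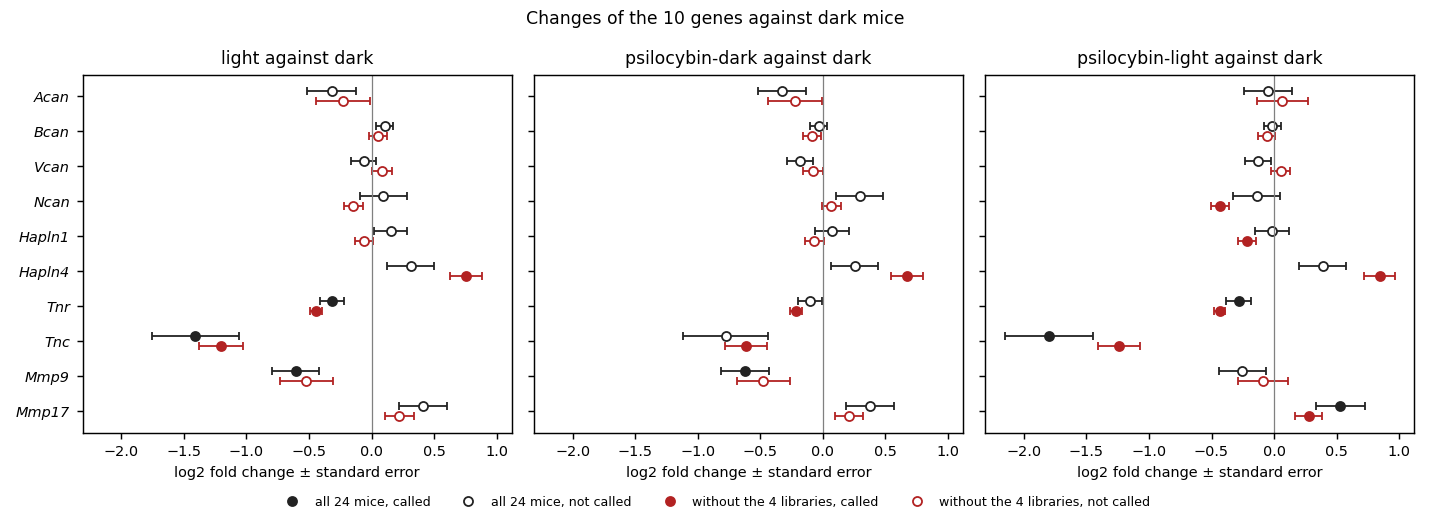
Log2 fold change of each gene against dark mice, with standard errors, from all 24 mice (black) and without the 4 libraries (red). Filled points have an adjusted p under 0.05. Tnc is lowest in all 3 panels, and Hapln4 is called in none of them in black and in all of them in red.

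Of the metalloproteinases, Mmp9 was called lower in light and psilocybin-dark mice and Mmp17 higher in psilocybin-light mice. No light or psilocybin-dark library reached 30 counts of Mmp9, so it passed the filter only through dark and psilocybin-light libraries. The filter and the comparisons with dark thus share high dark values, and these Mmp9 calls are given as a description. Mmp9, a secreted gelatinase that cuts several matrix proteins, was lowest 25.1, median 30.03 and highest 42.9 normalized counts in dark mice, 15.1, 20.2 and 26.1 in light mice, 13.2, 21.2 and 27.6 in psilocybin-dark mice and 19.7, 25.9 and 35.7 in psilocybin-light mice. Raw counts were 11 to 48 over the 24 libraries, and each of the other groups overlapped the dark group. Its log2 change against dark was -0.61 ± 0.19 in light (adjusted p = 0.016) and -0.62 ± 0.19 in psilocybin-dark mice (adjusted p = 0.019), while it was -0.25 ± 0.18 in psilocybin-light mice (adjusted p = 0.30, not called). Dark mouse 1 held the highest value, and without it the first changes missed the threshold, at adjusted p = 0.0502 and 0.0556. Without the 4 libraries they were -0.52 ± 0.21 and -0.47 ± 0.21, also not called. The light call held in 7 and the psilocybin-dark call in 6 of 12 other settings, among them no filter on low counts. Both were lost with the hippocampus, hypothalamus and amygdala or cerebellum markers as a covariate and without dark mice 1 and 6. The psilocybin-dark call was also lost with only the compared groups fitted. Dark mouse 1 also had the highest summed neutrophil markers, 124 normalized counts against 4.04 to 42.4 in the others, and 0 of 3 tested neutrophil markers were called. Neutrophils store MMP9, and the part of these markers in the Mmp9 change was not tested.

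Mmp17, a membrane-anchored metalloproteinase whose transcript was the most abundant of the members per length, was lowest 1539, median 3442 and highest 4454 normalized counts in dark mice, 3271, 4577 and 4917 in light mice, 2781, 4534 and 5208 in psilocybin-dark mice and 3864, 4854 and 5215 in psilocybin-light mice. Dark mice 1 and 6 were the lowest of all, at 2424 and 1539, followed by psilocybin-dark mouse 12 at 2781. Its log2 change was 0.53 ± 0.19 in psilocybin-light mice (adjusted p = 0.034), and 0.41 ± 0.19 and 0.38 ± 0.19 in light and psilocybin-dark mice, neither of which was called. Leaving out the 4 libraries gave a psilocybin-light change of 0.28 ± 0.11 (adjusted p = 0.041). This was among 7 of 12 other settings that kept the call. It was lost without dark mice 1 and 6 and with only the compared groups fitted. With the hippocampus, hypothalamus and amygdala or cerebellum markers as a covariate it was lost too, and adjusted p over the settings reached 0.43. The call was lost in 7 of 24 fits that left out 1 mouse, those without dark mouse 1, 3 or 6 or psilocybin-light mouse 19, 20, 21 or 24, with adjusted p up to 0.072.

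Between the 3 groups other than dark, no member was called with all mice. Psilocybin-light against light had 0 of 10 called by edgeR or DESeq2 and 0 with an unadjusted p under 0.05, where 0.608% of all genes were called. Psilocybin-light against psilocybin-dark had 0 called by edgeR, 1 by DESeq2 and 2 with an unadjusted p under 0.05, Ncan and Tnc, where 6.38% of all genes were called. Tnc did not overlap between these groups, as for 6.42% of all genes, with a log2 change of -1.02 ± 0.36 (adjusted p = 0.092). Psilocybin-dark against light had 0 called by edgeR or DESeq2 and 1 with an unadjusted p under 0.05, Tnr, where 0.456% of all genes were called. Without the 4 libraries, 1, 3 and 2 members were called, where 2.34%, 17.2% and 6.03% of all genes were.

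The interaction asks whether psilocybin changed a gene by another amount in light than in dark mice. Only Mmp9 of the 10 was called, where 8.75% of all genes were. Psilocybin went with a change of 0.35 ± 0.19 in light mice and -0.62 ± 0.19 in dark mice, and the difference was 0.97 ± 0.27 on the log2 scale (adjusted p = 0.026). It was also called without the 4 libraries (0.91 ± 0.29, adjusted p = 0.025) and in 24 of 24 fits that left out 1 mouse, but not with no filter on low counts (adjusted p = 0.061) or with the hippocampus or hypothalamus and amygdala markers as a covariate. Mmp9 passed the filter only through dark and psilocybin-light libraries, and high values in those groups also make this difference positive, so the filter and the contrast share values and the call is given as a description. A share of 1 in 10 is near the background. In the fit without these libraries 4 members were called, where 27.0% of all genes were. These were Ncan (-0.35 ± 0.10, adjusted p = 0.015), Hapln4 (-0.59 ± 0.17, adjusted p = 0.014), Tnr (0.22 ± 0.06, adjusted p = 0.016) and Mmp9.

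Ratios between 2 genes of the same library do not depend on how libraries are scaled. Over 4 ratios (Acan to Pvalb, Bcan to Ncan, Hapln1 to Hapln4, Tnr to Tnc) and 6 comparisons, 0 of 24 passed a two-sided exact permutation test after Benjamini-Hochberg adjustment with all mice, and 4 had an unadjusted p under 0.05. With 6 mice against 6 the smallest two-sided exact p is 0.0022, which adjusts to 0.052 over 24 tests, so no ratio could have passed alone. That smallest p was for Tnr to Tnc, whose log2 ratio was 5.55 ± 0.60 (SD, n = 6) in psilocybin-light and 4.08 ± 0.95 (SD, n = 6) in dark mice (exact p = 0.0022, adjusted p = 0.052). With the 4 libraries left out, 12 of 24 passed. Acan to Pvalb shifted most, by -1.57, -1.34 and -1.49 on the log2 scale in light, psilocybin-dark and psilocybin-light against dark mice. Tnr to Tnc shifted by 0.76, 0.40 and 0.87 (adjusted p = 0.032 for each of these by exact permutation). Acan itself changed in these comparisons by only -0.23, -0.22 and 0.07 without the 4 libraries, none called by edgeR. Pvalb, the other gene of that ratio, was at 205 to 591 normalized counts in these dark mice and 521 to 1399 in the others, so the ratio does not show a loss of Acan. Bcan to Ncan was then 0.14 ± 0.21 (SD, n = 6) in psilocybin-light mice and -0.39 ± 0.10 (SD, n = 5) in psilocybin-dark ones. Hapln1 to Hapln4 was -2.24 ± 0.23 (SD, n = 6) in psilocybin-light and -1.15 ± 0.39 (SD, n = 4) in dark mice (adjusted p = 0.032 for each by exact permutation).

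Members varied together within groups mostly through the 4 libraries. Over all 24 mice, the deviations of log2 levels from the group means had a Pearson r of 0.90 between Tnr and Mmp17, 0.90 between Ncan and Tnr and -0.84 between Tnr and Tnc. Without the 4 libraries these were 0.50, 0.37 and -0.53, and the highest was 0.58, between Acan and Vcan. The points share library, depth and tissue makeup, and the values are descriptions. The tested genes most like each member over 24 mice were Selenop for Acan (r = 0.78), Pld2 for Bcan (0.87), Mt2 for Vcan (0.92), Agap2 for Ncan (0.98) and Selplg for Hapln1 (0.93). They were Scn4b for Hapln4 (0.97), Tmem132b for Tnr (0.96), Mrgprf for Tnc (0.94), Odc1 for Mmp9 (0.78) and Iqgap2 for Mmp17 (0.97). Over the 20 mice outside the 4 libraries, Scn4b (0.94) and Iqgap2 (0.90) again came first for Hapln4 and Mmp17, followed for Hapln4 by Stac2 (0.93) and Syt2 (0.93), the latter a marker of parvalbumin interneurons. Each of the other 8 members had another gene in first place.

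**Figure D5:**
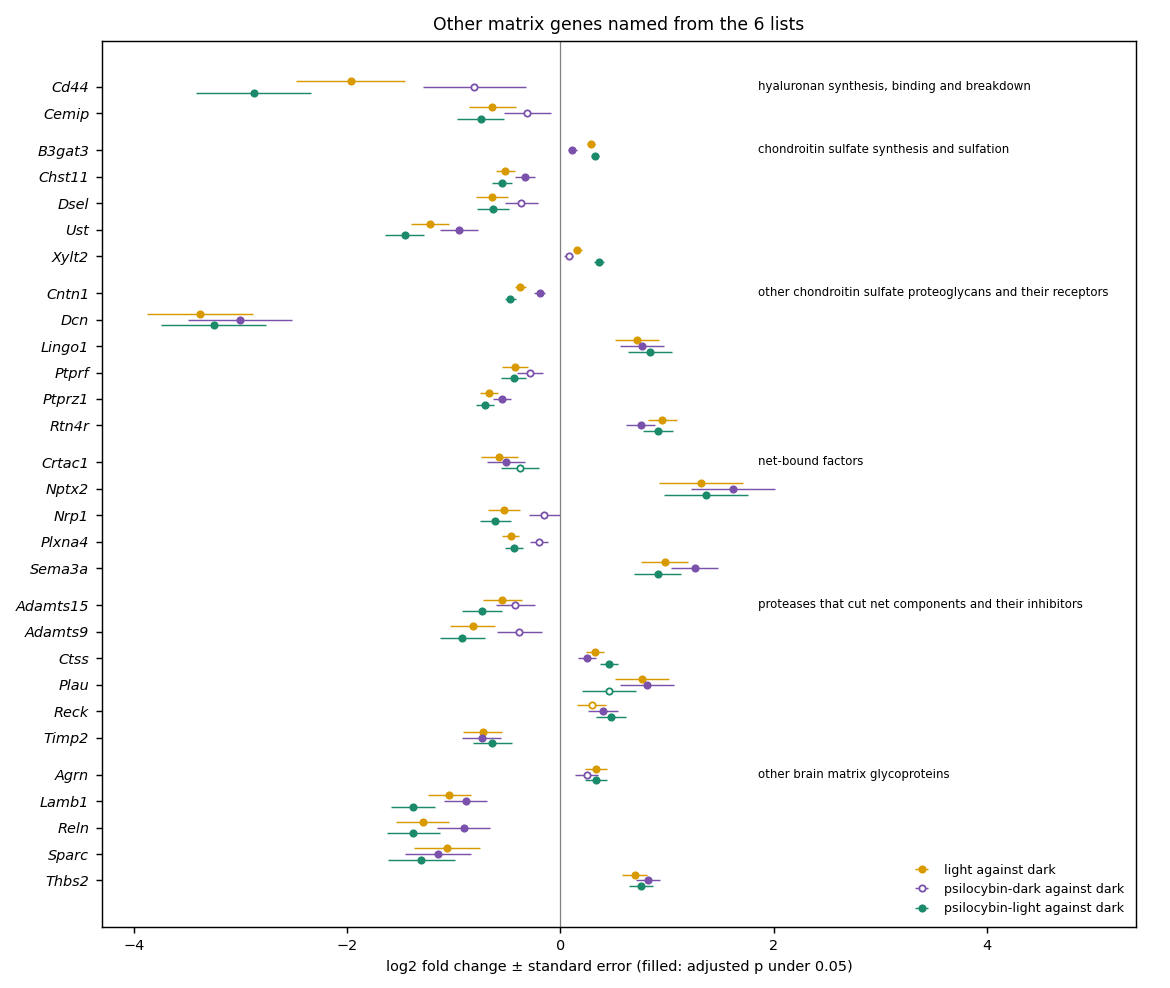
Log2 fold change against dark mice, with standard errors, of the other matrix genes named from 6 lists, with filled points for an adjusted p under 0.05. Dcn lies lowest, at -3.38 to -3.00, and Nptx2 highest, at 1.32 to 1.62.

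Other genes of net building were read from 6 lists, whose counts stand beside 31.9%, 24.7% and 38.4% of all genes called in light, psilocybin-dark and psilocybin-light against dark mice. With the 4 libraries left out these shares were 43.1%, 38.3% and 48.2%. In the enzymes that make chondroitin sulfate chains, 2 of 20 tested were higher and 4 lower in light than dark mice, 1 and 2 in psilocybin-dark, and 4 and 4 in psilocybin-light mice. Leaving out the 4 libraries gave 2 and 5, 2 and 7, and 4 and 4. Ust, a sulfotransferase acting on uronic acids of these chains, fell from a mean of 1187 normalized counts in dark to 508 in light and 614 in psilocybin-dark mice (log2 change -1.22 ± 0.18 and -0.95 ± 0.18). Chst11, which adds the 4-sulfate, changed by -0.52 ± 0.09 and -0.33 ± 0.09, both called. Dsel, an epimerase that makes dermatan sulfate, fell in light mice (-0.64 ± 0.15), while Xylt2 and B3gat3, which start and complete the linker to the protein, rose by 0.16 ± 0.04 and 0.28 ± 0.04. Of the hyaluronan genes, with all mice 0 of 10 were higher in any comparison with dark and 2, 0 and 2 were lower. These were the receptor Cd44 (-1.97 ± 0.51 in light, -2.88 ± 0.54 in psilocybin-light mice) and Cemip, which takes part in hyaluronan breakdown (-0.64 ± 0.22 and -0.75 ± 0.22). In the other 20 mice 2 were higher in each comparison, the link protein Hapln2 (1.34, 1.12 and 1.41) and Tnfaip6 (0.81, 1.28 and 0.91), whose product remodels hyaluronan, and 3, 0 and 3 were lower.

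Among other chondroitin sulfate proteoglycans and receptors, 2 of 13 were higher in each comparison with dark and 4, 3 and 5 lower, and without the 4 libraries 2 higher and 6 lower in each. The proteoglycan Dcn, also in the fibroblast list, had means of 2254 normalized counts in dark, 217 in light and 282 in psilocybin-dark mice, and the phosphatase Ptprz1, a receptor and itself a proteoglycan, fell by 0.67 and 0.55 on the log2 scale. Rtn4r, the Nogo receptor, and its partner Lingo1 rose, by 0.96 ± 0.14 and 0.72 ± 0.21 in light and by 0.75 ± 0.14 and 0.76 ± 0.21 in psilocybin-dark mice, and the light change of Lingo1 was 0.45 without the 4 libraries. Of the net-bound factors, 2, 2 and 3 of 9 were higher and 3, 1 and 2 lower, and without the 4 libraries 3, 2 and 3 higher and 5, 3 and 4 lower. Nptx2, a pentraxin secreted onto parvalbumin interneurons, rose by 1.32 ± 0.39 in light and 1.62 ± 0.40 in psilocybin-dark mice, and Sema3a, a guidance factor held in nets, by 0.98 ± 0.22 and 1.26 ± 0.22. Nrp1 and Plxna4, receptor subunits for Sema3a, fell in light mice by 0.53 and 0.46 on the log2 scale, and Crtac1 fell by 0.57.

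Among proteases and inhibitors, 2, 3 and 3 of 21 were higher and 5, 1 and 7 lower, against 4, 5 and 3 higher and 5, 3 and 8 lower without the 4 libraries. Adamts9 and Adamts15, which cut lecticans, fell in light mice by 0.82 and 0.54 on the log2 scale, and Timp2, a metalloproteinase inhibitor, fell by 0.73 in light and 0.74 in psilocybin-dark mice. Plau, the urokinase that turns plasminogen into plasmin, rose by 0.77 ± 0.25 and 0.81 ± 0.25, and cathepsin S (Ctss) by 0.32 ± 0.09 and 0.25 ± 0.09. Of other matrix glycoproteins, 2, 1 and 2 of 24 were higher and 4, 4 and 5 lower, against 3, 2 and 4 higher and 8, 7 and 9 lower without the 4 libraries. Reln, Sparc and Lamb1 fell in light mice by 1.29, 1.06 and 1.04 on the log2 scale, Sparc by 0.66 without the 4 libraries, and Thbs2, a thrombospondin, rose by 0.70 ± 0.11. With all mice every one of these lists held genes called in both directions except that of hyaluronan, the calls named from the lists held their direction and their side of the threshold without the 4 libraries, and the median log2 change in light against dark mice was between -0.16 and 0.01 over the 6 lists, against -0.01 over all genes.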

How the data were processed

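The deposited values are raw counts per Ensembl gene, 1 library per mouse. The authors enriched polyadenylated RNA, trimmed reads with cutadapt and dropped those under a minimum length, mapped with STAR and counted with HTSeq. The methods name GRCm39, and GEO's processing notes another build. Tool versions, annotation release and strand setting are not given in the sources used here. Deposited comparisons between groups were not used.

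edgeR 4.0.16 in R 4.3.3 was applied to all 24 libraries with TMM scaling and 1 term per group, the quasi-likelihood test and Benjamini-Hochberg adjustment over 14464 genes, those reaching 30 counts in some library. Normalized counts are counts scaled to a library of 16058300. A log2 change is the first group minus the second, and its error is the change divided by the root of the F statistic. Ratios used a pseudocount of 0.5 and two-sided exact permutation tests (scipy 1.17.1), for which the smallest p with 6 mice against 6 is 0.0022.

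The alternatives were DESeq2 1.42.0 and its size factors, 2 other filters, only the compared groups, a surrogate variable (sva 3.50.0), marker lists as covariates and mice left out. The fit was tested on simulated data. Members, lists of matrix and marker genes and tests were chosen with earlier results of these data known. Of each matrix list, up to 3 called genes per direction with the largest change in light or psilocybin-dark against dark and a mean of at least 10 are named. Likeness was taken over genes with a mean of at least 50, on log2 values with a prior count of 2. Positions are from GENCODE vM39 and upstream sequences from RefSeq.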

Additional observations from a re-analysis of the deposited data

Results flagged for a closer look

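Each of the 40 groups formed by 10 genes and 4 conditions was screened for a mouse whose gap to its nearest neighbour, as a share of the group's range, passed Dixon's 95% critical value, which chance gives in about 1 of 20 groups, and 10 were found. Of these, 6 were in libraries with high cerebellum markers. In psilocybin-dark mouse 12, Vcan was highest at 298 normalized counts and Tnc at 275, and Ncan and Tnr were lowest at 3344 and 2587. In light mouse 18, Tnc was highest at 171 and Mmp17 lowest at 3271. In psilocybin-light mouse 23, Acan was highest at 148, against 90.6 in the next mouse, and Vcan at 280, against 245, and this library had the highest thalamus and parvalbumin marker sums of its group. Bcan was lowest in light mouse 13, at 3691 against 4183 in the next, and Hapln1 in light mouse 14, at 415 against 494. Light mouse 14 also had the highest sums of its group for choroid plexus (2193 against 74.0 to 187), hippocampus (1737 against 1314 to 1467) and hypothalamus and amygdala markers (447 against 177 to 352), and their part in the Hapln1 value was not tested. Mmp9 differed in its response to psilocybin between light and dark mice, by 0.97 on the log2 scale (adjusted p = 0.026), but the call was lost with no filter on low counts, and the gene passed that filter only through dark and psilocybin-light libraries, whose high values also make this difference positive.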

How the results depend on the processing

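Counts of members called depended on the libraries and on marker covariates. Light against dark (3 members) had 5 with a surrogate variable and 0 with the hippocampus covariate. Psilocybin-dark against dark (1) had 0 with only the compared groups or with the hippocampus or hypothalamus and amygdala covariate, 2 with the oligodendrocyte or cerebellum covariate or without dark mice 1 and 6, 3 without the 4 libraries and 6 with a surrogate variable. It had 0 to 2 with 1 mouse left out, 0 without dark mouse 1 and 2 without dark mouse 6 or psilocybin-dark mouse 12. Psilocybin-light against dark (3) had 1 with only the compared groups or with the hippocampus or hypothalamus covariate, 5 with a surrogate variable and 6 without the 4 libraries. Psilocybin-light against light (0) had 1 with a surrogate variable or without the 4 libraries. Psilocybin-light against psilocybin-dark (0) had 1 with DESeq2, 2 with only the compared groups or without dark mice 1 and 6, and 3 with a surrogate variable, the cerebellum covariate or without the 4 libraries. Psilocybin-dark against light (0) had 1 with a surrogate variable, the cerebellum covariate or without dark mice 1 and 6, and 2 without the 4 libraries. The interaction (1) had 0 with no filter or with the hippocampus or hypothalamus covariate, 2 with a surrogate variable or the oligodendrocyte covariate, 3 without dark mice 1 and 6 and 4 without the 4 libraries. Ratios (0 of 24) had 8 without dark mice 1 and 6, 12 without the 4 libraries and 0 to 4 with 1 mouse left out, 4 without psilocybin-dark mouse 12. The cause of these shifts was not tested. Over single genes and comparisons, 2870 values were recomputed, of which 85 gained and 41 lost a call and none changed direction while called; 105 that were called in neither fit changed sign. The Tnc call in psilocybin-light against dark held in 12 of 12 other settings. The removal of the 4 libraries and the cerebellum covariate were chosen after seeing the data. Littermates were assigned to the groups at random, but the sample labels give no litter, so no analysis paired by litter was possible. Mmp9, at 11 to 48 reads, is limited by depth.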

Other observations

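Without the 4 libraries with high cerebellum markers, more genes passed the test for an interaction of light and psilocybin, among all genes as in most of the matrix lists. Of 20 enzymes of chondroitin sulfate chains, 5 were called higher and 0 lower, where none was called with all mice, and 27.0% of all genes were called against 8.75%. Other proteoglycans and receptors had 4 of 13 higher and 2 lower, against 2 and 1 with all mice, and net-bound factors 3 of 9 higher and 2 lower, against 0 and 1. Proteases and inhibitors had 1 of 21 in each direction in both fits. Hyaluronan genes had 0 of 10 higher and 1 lower, against 0 and 0 with all mice. Other matrix glycoproteins had 3 of 24 higher and 1 lower, against 1 and 1. Because the share of all genes called rose too, these counts are not read as a result about matrix genes.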
